A study of Homo sapiens with 6 samples.

Results

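The replication-dependent histone genes were described in polyadenylated RNA of hTert-HME1 cells, a human mammary epithelial line immortalised with telomerase. Genes were taken by name: the clustered H2A, H2B, H3 and H4 genes, the linker histones H1-1 to H1-6 and the older HIST names, without pseudogenes. Of 56 rows that matched, 20 were pseudogenes and 4 others were 0 in every library, which left 32 genes of 31834 rows with a value above or below 0. For 35 of the 70 gene symbols under the rule no row was matched by identifier, and these genes are not analysed here. The 32 genes were 6 of type H1, 7 of H2A, 10 of H2B, 5 of H3 and 4 of H4. On chromosome 6 lay 20 of them, on chromosome 1 another 10, and 1 each on chromosomes 12 and 21. A filter on low values (a mean of 2 raised to the log2 value of at least 10) was passed by 23 of the 32, among them 3 of type H1, 6 of H2A, 8 of H2B, 2 of H3 and 4 of H4.

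The 6 libraries all came from cells transfected with an siRNA, left to recover and then grown in mammary epithelial medium. At passage 4, 1 library had control siRNA (labelled control-1) with EGF, the epidermal growth factor of the complete medium, and 1 had BRCA2 siRNA (labelled BRCA2-2) with EGF. At passage 6, 2 libraries (A and B) had control siRNA with EGF and 2 (A and B) had BRCA2 siRNA in medium without EGF. No library had control siRNA without EGF or BRCA2 siRNA with EGF at passage 6, so the siRNA and the medium cannot be told apart at that passage; further libraries that the series' design text lists are not analysed here. Nothing in the labels says that replicates came from separate cultures, so each p-value reflects only how far these libraries spread, and that spread may be technical.

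Replication-dependent histone genes supply the histones that package newly copied DNA, and their mRNAs are made mainly in S phase. These mRNAs normally carry no poly(A) tail: they end just after a stem-loop that is bound by the stem-loop binding protein SLBP, which serves in their processing, export, translation and decay. Some of the genes also give longer, polyadenylated transcripts from signals beyond the stem-loop, and selection of poly(A) RNA retains these and loses most of the tail-less form. The values below are therefore those of whatever histone RNA passed the poly(A) selection, and not of the whole histone mRNA pool.

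The stem-loop was searched as the histone stem-loop motif in the annotated GENCODE 29 transcripts (sense strand). It stood in transcripts of 17 of the 32 genes, against 47 of 19684 protein-coding genes of the annotation, or 0.239%. Of the 15 genes without it, 10 had annotated transcripts with under 30 bases after the coding sequence, where it could not be seen. The 17 genes shared 4 different hairpins, of which one was annotated in 11 genes and another in 3. The stretches below show the ends of genes described later, with the 16 hairpin bases in capitals and 5 bases on either side.
H2AC6: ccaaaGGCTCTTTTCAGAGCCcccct
H2AC11: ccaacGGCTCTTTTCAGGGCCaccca
H2AC18: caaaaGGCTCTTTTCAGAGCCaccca
H2BC4: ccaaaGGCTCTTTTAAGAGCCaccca
H3C14: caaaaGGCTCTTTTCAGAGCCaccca
H4C8: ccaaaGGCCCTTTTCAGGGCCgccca
H4C16: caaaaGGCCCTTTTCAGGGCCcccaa
H2AC6, H2AC18 and H3C14 shared the commonest hairpin, and H4C8 and H4C16 another. Of the 17, 12 genes (11 of them tested) had at least 100 annotated bases after the hairpin, and in 6 of those 12 a polyadenylation signal AATAAA stood in the last 40 bases, as it did in H2AC6, H2AC11, H3C14 and H4C8. A match in an annotated transcript is a description and does not say which form was sequenced.

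The deposited values are log2 values from about -1.98 to 19.93, and their depth is unknown, so no counting error can be given. The 9 histone genes below the filter ran from -1.98 to 3.55 and moved by at most 0.93 between libraries. BRCA2, the targeted transcript, had 10.19 in the passage 4 control and 10.88 in the passage 4 library labelled BRCA2 siRNA, 11.25 and 11.24 in the passage 6 controls and 11.15 and 10.89 without EGF. It was 0.69 higher in the passage 4 library labelled BRCA2 siRNA than in its control (limma, adjusted p = 0.136). The transcript thus does not bear out the passage 4 label, and directions for that library are directions for the library so labelled. At passage 6 BRCA2 differed by -0.23 and was not called (limma, adjusted p = 0.230), so a lower transcript is not established there either. Markers of basal mammary epithelium were all tested (10 of 10), 5 of 10 luminal markers passed the filter, and none of 6 haematopoietic markers did, with 2 of them at 0 in all libraries. Of 10 fibroblast markers, none was at 0 and 8 were tested. Their summed level (2 raised to the value) was 2248 and 2621 in the passage 6 controls and 6907 and 7088 without EGF. Of the 8, 5 were called higher there. Basal markers had 8 of 10 above 0 there with 4 called higher (median 0.55). Of 5 luminal markers 1 was called higher and 1 lower, and 1 of 2 endothelial markers was called higher. Over all 14763 tested genes 525 were called higher there and 425 lower, and 47.3% were above 0. The part of these marker changes in the histone values was not tested. In bulk RNA, fewer cells of a type and less RNA per cell cannot be told apart. H3C14 and H3C15 have identical values in all libraries and an identical annotated transcript, so they hold 1 measurement. H2AC18 also has a near-identical copy. How reads shared by copies or overlapping neighbours were counted is not given in the sources used here, and such values are uncertain.

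At passage 6, cells labelled BRCA2 siRNA without EGF were compared with control cells with EGF. None of the 23 tested histone genes was called at an adjusted p below 0.05 (limma, Benjamini-Hochberg over 14763 genes), where 6.44% of all tested genes were. At an unadjusted p below 0.05 stood 4 of 23, against 31.5% of all genes. The differences nevertheless lay mostly on one side: 20 of 23 were above 0, against 47.3% of all genes, and their median was 0.27 on the log2 scale, against -0.02 for all genes. Without library B of the EGF-free pair 14 of 23 were above 0 (45.7% of all genes) and the median was 0.02, and without library A 20 of 23 (47.9%) and 0.42. The one-sided pattern therefore rests on library B. In 12 genes both EGF-free libraries were above both controls (29.2% of all genes), and in 2 both were below (35.7%).

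**Figure D1:**
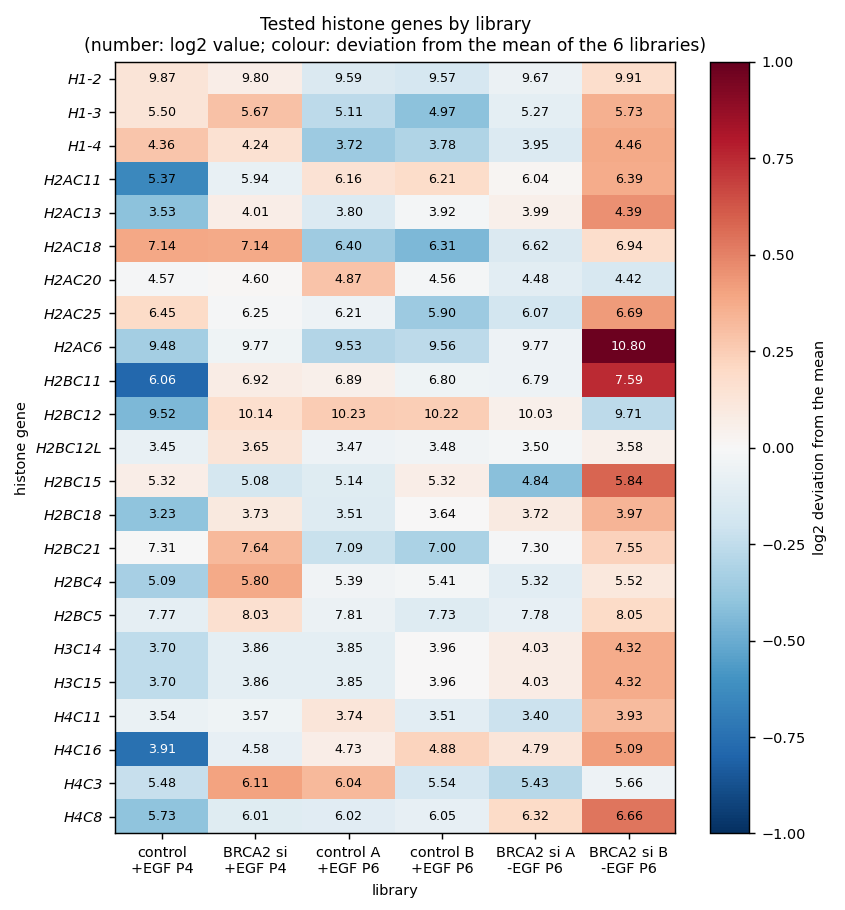
Each row is 1 of the 23 tested histone genes and each column 1 library (P4 and P6, passages; BRCA2 si, BRCA2 siRNA; +EGF and -EGF, medium); numbers are log2 values and colours the log2 deviation from the gene's mean over the 6 libraries. In 16 of the 23 rows the highest value is in the last column, EGF-free library B, and in 12 the lowest is in the first, the passage 4 control.

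Among the core histones of the nucleosome, H2AC6 (older name HIST1H2AC), which encodes an H2A, showed the highest difference. Its log2 values were 9.48 in the passage 4 control, 9.77 in the passage 4 library labelled BRCA2 siRNA, 9.53 and 9.56 in the passage 6 controls, and 9.77 and 10.80 in EGF-free A and B. Library B stood apart, while EGF-free A lay with the passage 4 library labelled BRCA2 siRNA. The difference at passage 6 was 0.74 ± 0.34 (limma SE, 2 against 2 libraries, adjusted p = 0.212), from a control mean of 9.54 ± 0.02 (SD, n = 2) to 10.28 ± 0.73 (SD, n = 2).

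H4C8 (HIST1H4H), an H4 gene, had 5.73 and 6.01 at passage 4, 6.02 and 6.05 in the passage 6 controls and 6.32 and 6.66 without EGF. The EGF-free libraries were the 2 highest of the 6, and the groups did not overlap. The difference was 0.46 ± 0.15 (limma SE, adjusted p = 0.123). H3C14 (HIST2H3C), an H3 gene, likewise had its 2 highest values without EGF, with 3.70 and 3.86 at passage 4, 3.85 and 3.96 in the controls and 4.03 and 4.32 without EGF, a difference of 0.27 ± 0.15 (limma SE, adjusted p = 0.274).

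The linker histones H1, which bind the DNA entering and leaving the nucleosome, gave differences of 0.21 (H1-2), 0.46 (H1-3) and 0.45 (H1-4), none of them called. H1-3 had 5.50 and 5.67 at passage 4, 5.11 and 4.97 in the passage 6 controls and 5.27 and 5.73 without EGF, so both EGF-free values were above both controls, and the passage 4 values lay between A and B (0.46 ± 0.19, limma SE, adjusted p = 0.173). H1-2 (HIST1H1C) was 9.87 and 9.80 at passage 4, 9.59 and 9.57 in the controls and 9.67 and 9.91 without EGF. It spanned only 0.35 over the 6 libraries.

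The other 3 genes had a mean difference below 0, none of them called. H2BC12 (HIST1H2BK), an H2B gene with a known polyadenylated transcript, had 9.52 and 10.14 at passage 4, 10.23 and 10.22 in the passage 6 controls and 10.03 and 9.71 without EGF. Both EGF-free values were below the closely placed controls, with a difference of -0.36 ± 0.12 (limma SE, adjusted p = 0.134). The difference was -0.26 ± 0.15 in H2AC20 and -0.24 ± 0.21 in H4C3 (limma SE, adjusted p = 0.277 and 0.455). The values of H4C3 were 5.48 and 6.11 at passage 4, 6.04 and 5.54 in the controls and 5.43 and 5.66 without EGF, and its groups overlapped. Without control A its difference was 0.0066. H2AC20 (HIST2H2AC) had 4.57 and 4.60 at passage 4, 4.87 and 4.56 in the controls and 4.48 and 4.42 without EGF, and in it both EGF-free libraries were the lowest.

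By histone type the medians at passage 6 were 0.45 for 3 H1 genes, 0.33 for 6 H2A, 0.13 for 8 H2B, 0.27 for the 2 H3 rows and 0.08 for 4 H4 genes. Genes with at least 100 annotated bases after the hairpin had a median of 0.27 over 11 genes, ranging from 0.02 to 0.74. The other 12 had a median of 0.18, ranging from -0.36 to 0.46, and the ranges overlapped. These 12 are not known short forms. Among them H1-2, H1-3, H2AC20 and H2BC12 had under 30 annotated bases after the coding sequence. Some, such as H1-2 and H2BC12, are among 8 histone genes listed here as having a known polyadenylated form. The list need not be complete: outside it, H2AC11, H3C14 and H4C8 have long annotated forms with AATAAA near the end. The 8 listed genes, all of them members, had 7 differences above 0 and 0 calls, with a median of 0.28. The 15 tested members outside that list had 13 above 0 and 0 calls, with a median of 0.27.

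The 2 EGF-free libraries differed from each other in these genes. Library B was above A in 21 of 23, against 49.3% of all tested genes, and by over 0.3 in 11 of 23, against 13.9%. The controls at passage 6 had B above A in 12 of 23, against 49.4%. Over the 23 genes, the median deviation from the mean of the 6 libraries was -0.23 in the passage 4 control, 0.07 in the passage 4 library labelled BRCA2 siRNA, -0.10 and -0.04 in the passage 6 controls, and -0.05 and 0.36 in EGF-free A and B. EGF-free A thus lay with the controls, and B above all other libraries. Library B was the highest of the 6 for 16 of 23 genes (19.1% of all genes), and the passage 4 control the lowest for 12 of 23 (23.9%). The largest gaps between A and B were 1.03 in H2AC6, 1.0 in H2BC15 (4.84 and 5.84) and 0.79 in H2BC11 (6.79 and 7.59). Over all genes the spread of A minus B was 0.308 (SD) without EGF and 0.119 in the controls.

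Control cells with EGF were next compared between passage 6 (2 libraries) and passage 4 (1 library). Of the 23 histone genes 4 were called, where 20.1% of all tested genes were: 3 were higher at passage 6, against 7.71% of all genes, and 1 was lower, against 12.4%. Both passage 6 values were above the passage 4 value in 13 of 23 genes (43.9% of all genes) and below it in 7 (49.2%). The median of the 23 differences was 0.14 (all genes -0.03), and 15 of 23 were above 0 (47.6% of all genes). Over all genes 1138 were called higher and 1825 lower; with each library centred on its median these were 1488 and 1339.

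H4C16 (HIST4H4), an H4 gene outside the large clusters on chromosome 12, had 3.91 in the passage 4 control and 4.73 and 4.88 in the passage 6 controls. The other libraries had 4.58 (passage 4, BRCA2 siRNA) and 4.79 and 5.09 (without EGF), so the passage 4 control stood below all 5 others. The passage difference was 0.89 ± 0.19 (limma SE, adjusted p = 0.0398). H2AC11 (HIST1H2AG) had 5.37 in that library, 5.94 in the other passage 4 library, 6.16 and 6.21 in the passage 6 controls and 6.04 and 6.39 without EGF. Its difference was 0.81 ± 0.19 (limma SE, adjusted p = 0.0475). H2BC12, whose values are given above, was also lowest in the passage 4 control and rose by 0.70 ± 0.15 (limma SE, adjusted p = 0.0420).

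H2AC18 (HIST2H2AA3) went the other way, with 7.14 in both passage 4 libraries, 6.40 and 6.31 in the passage 6 controls and 6.62 and 6.94 without EGF. It was highest in the passage 4 libraries and fell by 0.79 ± 0.18 (limma SE, adjusted p = 0.0445). The 3 H1 genes were also below 0, with a median of -0.47 and 0 called. H1-4 had 4.36 and 4.24 at passage 4, 3.72 and 3.78 in the controls and 3.95 and 4.46 without EGF, a passage difference of -0.61 ± 0.24 (limma SE, adjusted p = 0.131). All 4 calls were lost when control A or B at passage 6 was left out (adjusted p 0.180 to 0.248) and when both were averaged into 1 library (0.208 to 0.232). With no filter on low values 0 histone genes were called (these 4 at adjusted p 0.0957 to 0.116), and H2AC11 was lost with the replicate letter as a block (adjusted p = 0.0588). H2AC18 was also lost with libraries centred on their median (adjusted p = 0.0533).

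At passage 4 with EGF, the library labelled BRCA2 siRNA was compared with its control, 1 library against 1, so the spread comes from the passage 6 pairs. None of the 23 histone genes was called by limma, as for all 14763 genes (0.0%), and 3 of 23 stood at an unadjusted p below 0.05, against 23.3% of all genes. The median difference was 0.25 (all genes -0.04), and 18 of 23 were above 0 (45.7% of all genes). H2BC11 (HIST1H2BJ) had the highest difference, with 6.06 in the control and 6.92 in the other library, 0.86 ± 0.39 (limma SE, adjusted p = 0.263). In its other libraries it had 6.89 and 6.80 (controls, passage 6) and 6.79 and 7.59 (without EGF), so that again the passage 4 control was alone at the low end. H2BC4 (HIST1H2BC) was 5.09 and 5.80 at passage 4, 5.39 and 5.41 in the passage 6 controls and 5.32 and 5.52 without EGF, and was highest in the passage 4 library labelled BRCA2 siRNA (0.72 ± 0.18, limma SE, adjusted p = 0.141). The lowest differences were -0.24 in H2BC15 and -0.20 in H2AC25 (adjusted p = 0.794 and 0.743). This comparison and the one between passages share the passage 4 control.

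The libraries labelled BRCA2 siRNA were compared between EGF-free medium at passage 6 (2 libraries) and complete medium at passage 4 (1 library); medium and passage cannot be told apart. None of the 23 was called by limma, where 16.3% of all genes were, and 0 stood at an unadjusted p below 0.05, against 37.3% of all genes. The median was 0.09 (all genes -0.02), with 12 of 23 above 0 (48.0%). The differences ran from -0.57 in H4C3 (adjusted p = 0.175) to 0.51 in H2AC6 (adjusted p = 0.420). H2AC6 stood at -0.0048 without EGF-free library B and at 1.02 without A, and the median of the 23 at -0.13 and 0.25.

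**Figure D2:**
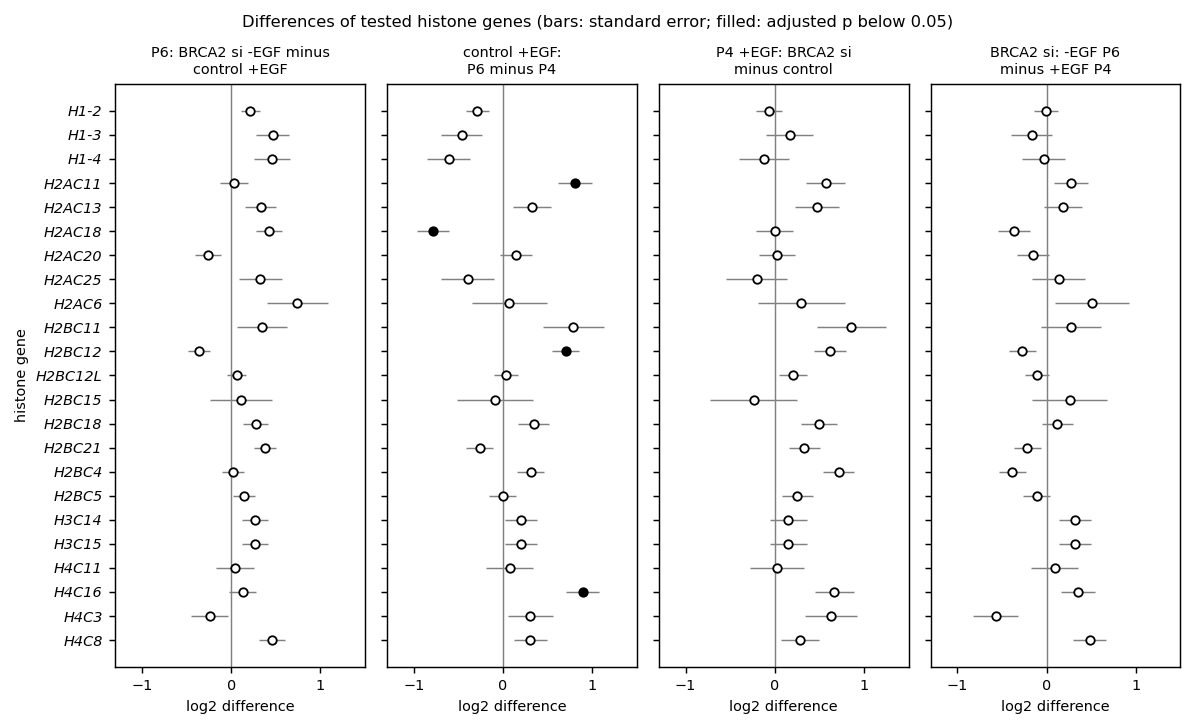
Each panel is 1 comparison and each row 1 of the 23 tested histone genes; points are log2 differences, bars the limma standard error, and filled points have an adjusted p below 0.05. Filled points are in the second panel only, 3 above 0 and 1 below, and in the first panel 20 of the 23 points are above 0.

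Genes of S phase, with which histone synthesis is coupled, were set beside the histone genes. At passage 6 all 25 tested S phase genes of 26 listed were below 0 without EGF, with a median of -0.52 and 0 called, where the histone genes had a median of 0.27. PCNA, the sliding clamp of DNA polymerases, had 11.03 and 12.03 at passage 4, 12.21 and 12.23 in the passage 6 controls and 11.85 and 10.82 without EGF. Its difference at passage 6 was -0.88 (limma, adjusted p = 0.162), beside -0.93 in RRM2, a subunit of ribonucleotide reductase, and -0.76 in FEN1, a flap endonuclease. Between passages in control cells all 25 were above 0 (47.6% of all genes) and 17 were called higher (7.71% of all genes), with a median of 1.19. By library, the median deviation of the S phase genes was -0.72 in the passage 4 control, 0.23 in the other passage 4 library, 0.37 and 0.43 in the passage 6 controls, 0.09 in EGF-free A and -0.44 in EGF-free B. The passage 4 control was thus low in both lists, whereas EGF-free B was high in the histone genes and low in the S phase genes. Of 12 mitosis genes 11 were below 0 without EGF at passage 6 (median -0.24, 0 called), and 4 were called higher in the controls at passage 6 than at passage 4 (7.71% of all genes). MKI67, a marker of cycling cells, had 15.12 and 15.88 at passage 4, 16.13 and 16.23 in the controls and 16.34 and 16.03 without EGF; it was the 1 mitosis gene above 0 at passage 6, by 0.007 (limma, adjusted p = 0.976).

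**Figure D3:**
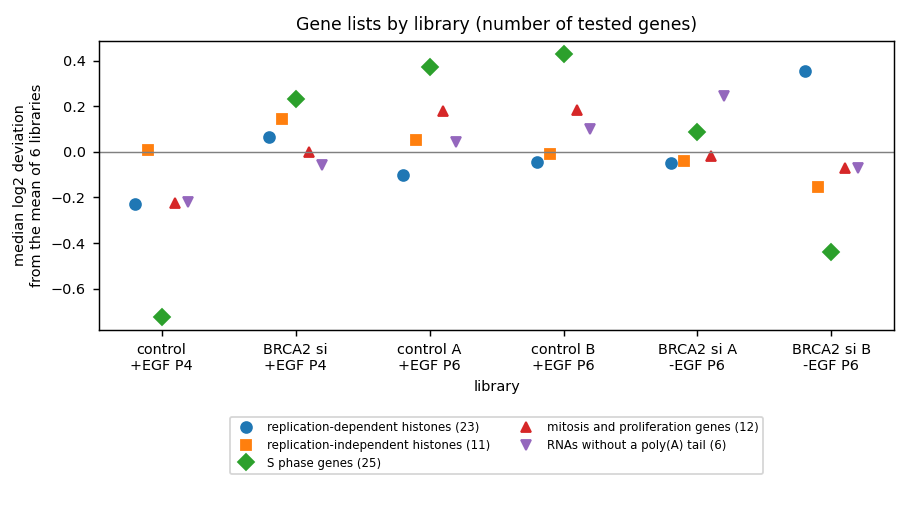
Points are the median log2 deviation of each gene list from its genes' means over the 6 libraries, by library, with the number of tested genes in brackets. In EGF-free library B the histone genes stand at 0.36 and the S phase genes at -0.44; in the passage 4 control they stand at -0.23 and -0.72.

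Replication-independent histones gave 5 of 11 above 0 at passage 6 with a median of -0.16 and 0 called. Most genes of this list, but not all, have ordinary polyadenylated mRNAs made outside S phase too. H1-10, a linker histone, had 9.31 and 8.97 at passage 4, 8.44 and 8.52 in the passage 6 controls and 8.63 and 9.51 without EGF. Its highest value was in EGF-free B (a difference of 0.59 at passage 6, limma, adjusted p = 0.242). H2AZ1, an H2A variant of promoters, was lower by a difference of -0.70 (adjusted p = 0.103). H2AX, the variant phosphorylated at DNA breaks, was the 1 gene of the 11 called between passages, where 20.1% of all genes were. It was 0.97 higher at passage 6 (limma, adjusted p = 0.039) and was chosen after its values were seen.

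Of 19 genes for histone transcription and mRNA 3' end formation, 3 were above 0 at passage 6 and 0 were called. SLBP had 10.61 and 10.70 at passage 4, 10.62 and 10.61 in the controls and 10.29 and 9.94 without EGF. Both EGF-free values were the lowest of the 6 (-0.50, limma, adjusted p = 0.087). NPAT, the coactivator of histone gene transcription, had 10.16 and 10.40, then 10.54 and 10.58, then 10.51 and 10.14 in the same order (-0.24 at passage 6, adjusted p = 0.30). CCNE2, a cyclin that drives entry into S phase, differed by -1.24 (adjusted p = 0.170). Between passages 3 of the 19 were called higher and 2 lower, against 7.71% and 12.4% of all genes. Of 11 histone mRNA decay genes 6 were above 0 at passage 6 with 0 called, the largest being 0.75 in PNRC1 (adjusted p = 0.103). Between passages 2 of the 11 were called lower, against 12.4% of all genes. They were PNRC1 (-1.38, limma, adjusted p = 0.037) and TUT7 (-0.66, adjusted p = 0.025), the second chosen after its values were seen. Of 21 chaperones and importers 5 were above 0 with 0 called, while 5 were called higher between passages, against 7.71% of all genes. ASF1B, a chaperone of newly made H3 and H4, differed by -0.55 at passage 6 (adjusted p = 0.103).

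RNAs that carry no poly(A) tail were listed to follow how much of such RNA came through the selection. Of 41 listed, 6 were tested, 20 fell below the filter and 6 were at 0 in all libraries, and their summed level was between 206 and 257 in the 6 libraries. At passage 6 their median difference was 0.06 with 4 of 6 above 0, and 0 were called in any of the 4 comparisons. In EGF-free B their sum was 212, against 252 in EGF-free A, where the histone genes were the lower. Whether carried-over tail-less histone RNA enters the values was not tested.

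Many H2A and H2B genes lie head to head and share the stretch between their starts. Both members were tested in 3 such pairs, and the stretch between the annotated starts is shown because the members of a pair could be compared over the same DNA. Sequences are RefSeq's for GRCh38.p14, plus strand, a later build than the hg19 of the values; capitals mark the TATA box letters TATAAA, the box CCAAT and the octamer ATTTGCAT on either strand, and neighbouring or overlapping matches run together.
H2BC11 and H2AC11, chr6:27132796-27133042: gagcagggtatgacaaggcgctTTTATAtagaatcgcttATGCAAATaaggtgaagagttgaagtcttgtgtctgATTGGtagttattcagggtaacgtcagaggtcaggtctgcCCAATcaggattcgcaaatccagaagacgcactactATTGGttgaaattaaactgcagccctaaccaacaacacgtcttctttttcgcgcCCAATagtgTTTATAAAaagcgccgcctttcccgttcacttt
H2BC4 and H2AC6, chr6:26123927-26124171: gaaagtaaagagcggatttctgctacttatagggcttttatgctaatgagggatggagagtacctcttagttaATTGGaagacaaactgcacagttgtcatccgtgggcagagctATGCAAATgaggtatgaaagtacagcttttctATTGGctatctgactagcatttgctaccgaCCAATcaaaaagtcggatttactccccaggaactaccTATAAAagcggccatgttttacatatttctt
H2BC21 and H2AC20, chr1:149886683-149886917: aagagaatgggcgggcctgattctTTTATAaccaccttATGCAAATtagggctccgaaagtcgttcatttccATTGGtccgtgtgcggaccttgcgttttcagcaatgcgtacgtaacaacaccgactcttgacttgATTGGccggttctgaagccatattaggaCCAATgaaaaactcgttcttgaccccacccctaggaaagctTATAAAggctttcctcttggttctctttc
H2BC11 and H2AC11 were both lowest in the passage 4 control and highest in EGF-free B. Their deviations from their own means differed by a median of 0.15 over the 6 libraries and by at most 0.37, and lay on the same side of the mean in 3 of 6 libraries. The gap was larger for H2BC4 and H2AC6, with a median of 0.25 and a maximum of 0.88, reached in EGF-free B, though these genes were on the same side in 5 of 6. H2BC21 and H2AC20 had a median gap of 0.30 and a maximum of 0.51, with the same side in 4 of 6. At passage 6 the difference was 0.38 in H2BC21 (HIST2H2BE) and -0.26 in H2AC20, with neither called, so the genes of a pair did not always have the same sign. In the order shown, the 3 stretches hold 3, 1 and 2 TATAAA matches, 4, 3 and 3 CCAAT matches and 1 octamer each. In RefSeq windows from 250 bases before to 50 after the start, TATAAA stood in 20 of 29 histone genes with a window against 11.5% of 35116 windows, CCAAT in 26 of 29 against 34.6%, and the octamer in 10 of 29 against 1.77%. The octamer was found for 5 of 9 H2B and 4 of 7 H2A genes, for 1 of 4 H3 genes and for none of the 6 H1 or 3 H4 genes. A match is a description of the letters and not a bound site.

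The genes most like the median profile of the histone genes over the 6 libraries were KRBOX5 (Pearson r = 0.987), CYB5D2 and R3HCC1L (both 0.986), NOP14-AS1 (0.985) and ALOX12-AS1 (0.982). Of 13577 genes compared, 21 exceeded 0.95. With 6 libraries that share 1 normalisation this is a description, and reads of the 2 antisense genes and their partners cannot be told apart here.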

How the data were processed

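The 6 libraries were made from bead-purified mRNA with a Script-seq kit, per the labels' protocols. The submitters' processing notes list TopHat2 2.0.11, hg19 and DESeq2 without a version. No source used here names the counter, annotation or transformation. The deposited values are log2 values; 25986 of 57820 rows were 0 throughout, and a shrinking transformation, if the authors used one, would understate differences of low genes. All 6 columns matched the labels. Symbols were found for 89.9% of rows by identifier. The 14763 genes whose linear values (2 to the power of the log2 value) averaged 10 or more were fitted with limma 3.58.1 in R 4.3.3, with 1 level per combination of siRNA, medium and passage, 2 residual degrees of freedom, a trended robust prior, two-sided tests and a Benjamini-Hochberg adjusted p below 0.05. Groups of 1 library take their spread from the others. The procedure was tested on simulated data. Members, lists and alternatives were chosen with earlier results of these data known. Named histone genes are the called ones, the best measured of each type, and the 3 highest and 3 lowest differences per comparison; H2BC21 was added as a pair's partner. From other lists up to 3 genes with the largest passage 6 difference are named, plus SLBP, NPAT, PCNA, MKI67 and BRCA2. Alternatives covered filters, centring, the prior, the design, averaged controls, a replicate block and leaving out each library.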

Additional observations from a re-analysis of the deposited data

How the results depend on the processing

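Of the histone counts and medians recomputed under each alternative, 106 stayed near the reported value and 14 moved. For a median, near meant a shift below 0.21, the pooled SD of the per-library histone medians within the 2 passage 6 groups. The medians of 0.14 between passages and 0.09 for the libraries labelled BRCA2 siRNA could reach 0 and still be near. Leaving out 1 library gave 0 to 16 called histone genes in the passage 6 comparison, 0 to 11 between passages, 0 to 11 at passage 4 and 0 to 10 for the libraries labelled BRCA2 siRNA; the medians ran from 0.021 to 0.42, 0.06 to 0.15, 0.25 to 0.25 and -0.13 to 0.25. The high counts arose without EGF-free A (16, 11, 11 and 10) or B (4, 11, 11 and 6). There the close control pair alone gives the spread. Over all genes the passage 6 calls were then 4157 higher and 4807 lower, or 2765 and 4210. Calls over all genes also rose steeply in the other comparisons when A or B was left out. In those comparisons the share of histone genes called was then below the share of all genes called. At passage 6 the histone share was above that of all genes without A and below it without B. The high histone counts therefore do not by themselves show a response of the histone genes. Between passages 0 histone genes were called with no filter, with controls A and B averaged, or without either control. For all genes the passage 6 calls were 51 higher and 25 lower with no filter, 36 and 10 with averaged controls, and 126 and 20 without a passage level. Without that level the controls of both passages were pooled, also for the 126 and 20 calls. The passage 4 library labelled BRCA2 siRNA was then 0.059 above the pooled controls in H2AC25 and 0.28 above them in H1-4. Against the passage 4 control alone the differences were -0.20 and -0.12. H4C3 was 0.0066 at passage 6 without control A and -0.49 without B. H2AC6 was -0.0048 in the last comparison without EGF-free B and 1.02 without A. These changes of sign follow from which libraries entered the means. Why those libraries differ was not tested.

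Whether the letters A and B pair the libraries is not known. A minus B differences of the 2 passage 6 groups correlated at -0.17 over genes. This value cannot decide the question, because each group has only libraries A and B. With the letter as a replicate block, 0, 3, 0 and 0 histone genes were called in the order above, H2AC11 being lost between passages (limma, adjusted p = 0.0588). Of all 14763 genes 1137 were then called higher and 1584 lower between passages. With the letters crossed, an alternative chosen after seeing the data, the histone counts were 0, 5, 0 and 0. Of all genes 945 were then called higher and 1430 lower between passages, and 948 higher and 847 lower at passage 6. Depth is unknown, which limits what low values can show.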
